A study of Mus musculus with 18 samples.

Results

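Base excision, nucleotide excision and mismatch repair genes were measured in a mouse B lymphoma line with and without depletion of the transcription factors USF1 and USF2, before and after ionizing radiation (IR). The gene set held 32 repair genes listed by name, chosen with earlier results of these data known. Of these, 30 had a transcript cluster (the probe group of one transcript) that the platform annotation assigned to that gene alone, out of 30176 genes with such a cluster, and where a gene had several the brightest was used. The cells were M12-5B3, a p53-deficient line of germinal centre type labelled M12 B lymphocytes. All were transduced with lentivirus and selected in puromycin, and carried either a scrambled shRNA (sshRNA, the control) or a mixture of shRNAs against USF1 and USF2 (USFKD). Each was untreated (no IR) or taken 1 day (1d IR) or 7 days (7d IR) after a single 5 Gy dose, giving 6 groups of 3 arrays and 18 arrays in all. The cells were grown out as clones, and the sources used here leave unclear whether the 3 replicates of a line were separate clones or samples of 1 clone; if the latter, the depletion and the clone cannot be told apart. No untreated cells were taken at the later days, so irradiation and time in culture cannot be told apart either, and p-values measure only the spread between these arrays.

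These pathways mend damage to one DNA strand. In base excision repair a DNA glycosylase removes a damaged base, APEX1 cuts the abasic site left behind, POLB fills the gap and LIG3 seals it on the scaffold XRCC1, while PARP1 and PARP2 sense the strand break, which radiation also makes directly. Nucleotide excision repair cuts out a short stretch around a bulky lesion: the lesion is found by DDB1 with its partner DDB2, by XPC with RAD23B, or by a stalled RNA polymerase with ERCC6 and ERCC8, is opened and checked by TFIIH and XPA, and is cut by ERCC1-ERCC4 on one side and ERCC5 on the other. Mismatch repair corrects replication errors, which MSH6 and MSH3 recognise with a common partner and PMS2 helps to cut. In germinal centre B cells UNG and MSH6 also act on the uracils made during antibody gene diversification. USF1 and USF2 bind DNA as dimers at the E-box CACGTG.

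Values are log2 intensities after robust multi-array averaging (RMA), a scale on which 1 unit is a 2-fold change, and levels of different genes are not compared since each has its own probes. A gene was called when its adjusted p in limma, over all 72688 clusters, was under 0.05 and its fold change over 1.5. Replicate arrays correlated at 0.986 to 0.994, and the number of arrays limits the precision. Without irradiation both transcript clusters of Usf2 were lower in USFKD, with log2 differences of -2.15 and -1.32, whereas that of Usf1 was -0.07 (adjusted p = 0.799). The Usf1 cluster spanned 5.03 to 5.35 over all arrays, close to the dim limit given next. By Western blot, the study reported less nuclear protein of both USF1 and USF2 in USFKD. All 6 measured B cell markers were above the dim limit of 4.67 (set so that 95% of 1525 receptor genes of smell and pheromone sensing lay below it), as were 0 of 4 T cell, 1 of 4 myeloid, 1 of 3 epithelial and 2 of 3 stromal markers. The 7d IR arrays stood apart as a set: their mean over spike-in probes was 11.4 to 11.8 against 10.6 to 11.1 on the others, and their median over all clusters 4.54 to 4.65 against 4.38 to 4.46. Of the repair genes, 28 lay above the dim limit on average, and Neil2 (4.15 to 4.51) and Ercc2 (4.33 to 4.94) did not.

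Of the 32 promoters, 28 were in the RefSeq table (GRCm38.p6), each as 250 bases before and 50 after an annotated start site. The E-box CACGTG, which reads the same on both strands, was searched in them because it is the site that USF dimers bind. It occurred in 6 of the 26 genes with a window and their own cluster (Ercc8, Ercc6, Parp2, Lig3, Gtf2h1 and Apex1), and in 2187 of 27025 genes overall (8.09%). The latter include genes of any level in these cells, and no share was taken over the genes above the dim limit, so the shares are not like for like. The windows of Parp1 and Tdg, which had no cluster of their own, also held a match. Their joint clusters are described below, and that of Tdg was lower in USFKD at each time. Both genes of transcription-coupled recognition, Ercc6 and Ercc8, held a match, and Parp2 was the only one of the 9 called genes with a window to do so. Of the 5 genes called between the cell lines at any time, 4 had a window and none of these held the letters. The 250 bases upstream of the start site are printed for Ercc8, Ercc6 and Parp2, 5′ to 3′ with the E-box in capitals. Among the genes with their own cluster and a match, Ercc8 and Ercc6 differed most clearly between the lines. Msh6, Ercc5, Pms2, Rad23b and Mutyh, whose windows held no match, had a smaller adjusted p between the lines than either. Whether a match went with a difference between the lines was not tested.
Ercc8 promoter, chr13:108158488-108158737, + strand: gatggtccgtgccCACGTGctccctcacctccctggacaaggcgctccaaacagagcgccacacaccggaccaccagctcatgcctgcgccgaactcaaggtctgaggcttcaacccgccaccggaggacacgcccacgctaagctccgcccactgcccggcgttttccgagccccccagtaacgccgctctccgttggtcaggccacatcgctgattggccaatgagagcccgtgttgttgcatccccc
Ercc6 promoter, chr14:32513271-32513520, + strand: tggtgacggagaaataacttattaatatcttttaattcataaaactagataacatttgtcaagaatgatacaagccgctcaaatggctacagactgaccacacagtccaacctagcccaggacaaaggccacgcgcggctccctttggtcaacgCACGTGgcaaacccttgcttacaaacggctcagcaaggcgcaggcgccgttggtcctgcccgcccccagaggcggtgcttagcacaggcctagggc
Parp2 promoter, chr14:50807666-50807915, + strand: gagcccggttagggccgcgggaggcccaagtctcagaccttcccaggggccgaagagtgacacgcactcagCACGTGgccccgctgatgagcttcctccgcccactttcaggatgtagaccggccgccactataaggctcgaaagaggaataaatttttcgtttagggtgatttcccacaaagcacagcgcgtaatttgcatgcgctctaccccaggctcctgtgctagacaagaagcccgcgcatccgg
The first base of the E-box lay at position -237 in Ercc8, -96 in Ercc6 and -179 in Parp2, counted from the start site of each window. The RefSeq gene spans began before these start sites, at 108158711 for Ercc8, 32513291 for Ercc6 and 50807897 for Parp2. The E-box of Ercc6 thus lay inside its gene span, and those of Ercc8 and Parp2 lay upstream of theirs. A match describes the letters in these windows and says nothing of binding.

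The view of all 30 genes on every array shows how unevenly the set behaved. In any of the 11 comparisons 11 genes were called (Neil1, Neil3, Mutyh, Parp2, Xrcc1, Polb, Ddb1, Xpa, Ercc3, Ercc5 and Msh6) and 19 in none. Of the 30 genes, 15 stayed within 0.5 log2 units of their mean in sshRNA no IR on every array. Neither count was set beside the same count over all genes, so neither sets the repair genes apart. The called share of the genes above the dim limit is given below for each comparison. Msh6 and Ercc5 followed the cell line, Neil1, Parp2, Xrcc1, Ddb1 and Ercc3 followed time after irradiation, and Polb followed both.

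**Figure D1:**
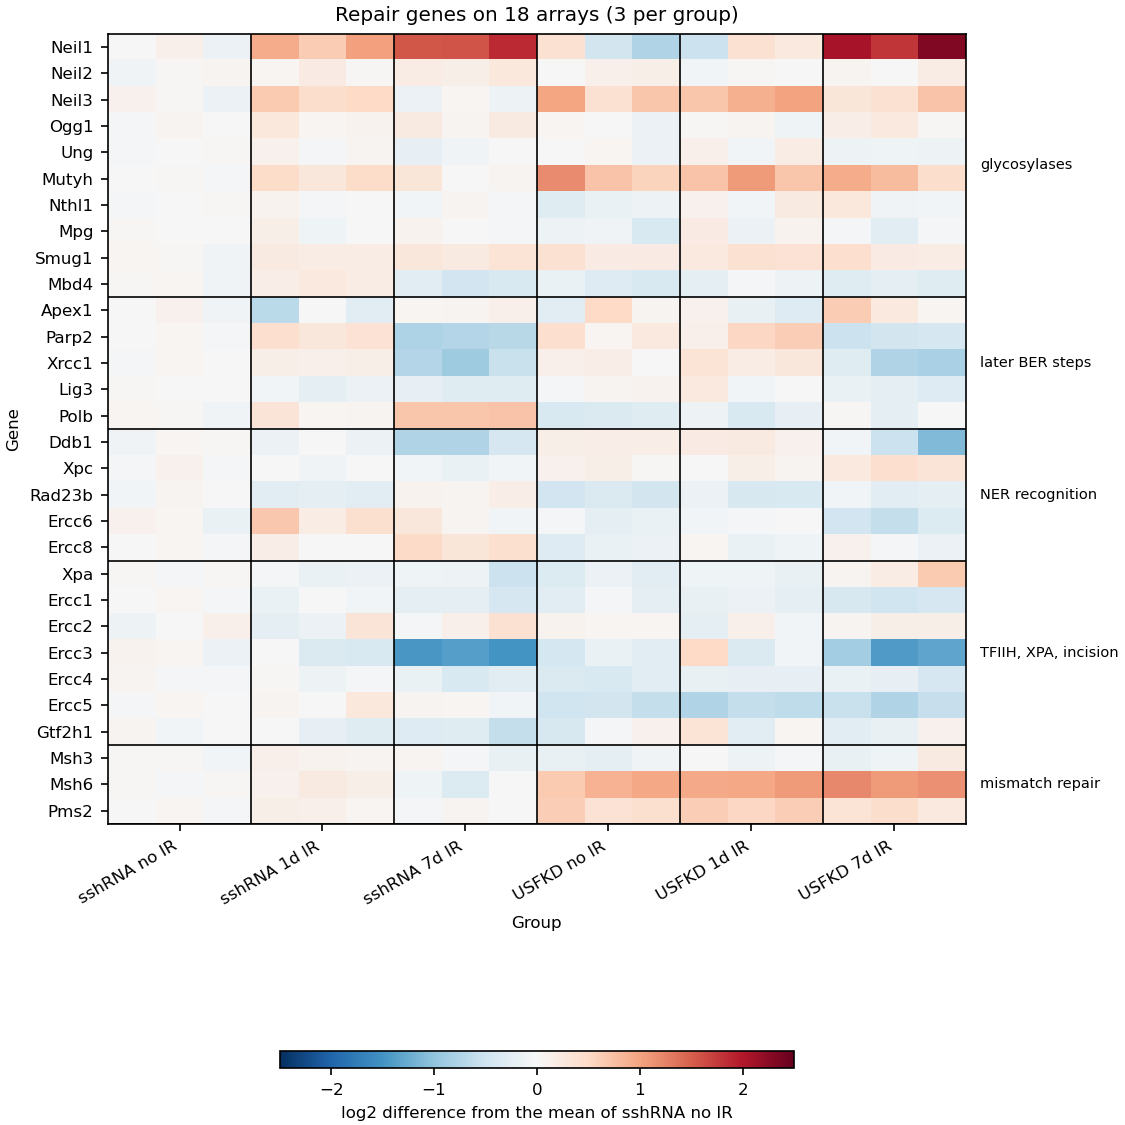
Log2 difference of each repair gene (vertical axis, grouped by role; BER, base excision repair; NER, nucleotide excision repair) from its mean in sshRNA no IR, on each of the 18 arrays (horizontal axis, 3 per group). Msh6 is red on all USFKD arrays, Ercc5 blue on the same arrays, and Ercc3 blue and Neil1 red on the 7d IR arrays of both lines.

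The first question was which repair genes differed between USF-depleted and control cells. Msh6, the mismatch recognition subunit for single-base errors, was called higher in USFKD at all 3 times, and Ercc5, the nuclease that cuts 3′ of a lesion, was lower, called at 1d IR and 7d IR. The glycosylase genes Mutyh and Neil3 were called higher without irradiation alone, and the gap-filling polymerase gene Polb was called lower at 7d IR alone. In all, 3 of 30 genes were called without irradiation (all higher), 2 at 1d IR (1 higher, 1 lower) and 3 at 7d IR (1 higher, 2 lower). Among the 15541 genes above the dim limit the called share was 13% without irradiation (4.5% higher and 8.52% lower), 10.3% at 1d IR (5.24% and 5.1%) and 16.5% at 7d IR (7.32% and 9.2%). The median log2 difference of the 30 genes was -0.07, 0.04 and 0.04, against -0.02, 0.02 and -0.03 over the genes above the dim limit.

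Msh6 gave 11.23, 11.16 and 11.23 in sshRNA no IR and 11.87, 12.08 and 12.17 in USFKD no IR. At 1d IR it gave 11.32, 11.44 and 11.36 against 12.16, 12.18 and 12.27. At 7d IR it gave 11.10, 10.87 and 11.21 against 12.41, 12.27 and 12.36. Every USFKD array was above every sshRNA array, whatever the treatment. The log2 difference was 0.83 ± 0.09 (SE) without irradiation (1.78-fold, adjusted p = 4.64e-05), 0.83 ± 0.09 at 1d IR (adjusted p = 5.85e-05) and 1.29 ± 0.09 at 7d IR (2.44-fold, adjusted p = 6.46e-07). The rise of that difference from untreated to 7d IR, 0.45 with a 95% interval of 0.17 to 0.74, did not pass the test over all genes (adjusted p = 0.0932).

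The other mismatch repair genes differed less. Pms2, which supplies the endonuclease of the pathway, was higher in USFKD by 0.46 ± 0.08, 0.48 ± 0.08 and 0.33 ± 0.08 log2 units at the 3 times (adjusted p = 0.00188, 0.00163 and 0.0149), below the fold threshold each time. Its sshRNA arrays spanned 8.10 to 8.30 and its USFKD arrays 8.39 to 8.77, without overlap. Msh3, which recognises larger loops, differed by -0.17, -0.16 and 0.02 with intervals from -0.38 to 0.24 and did not pass the test.

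Mutyh, which removes adenine paired with oxidised guanine, gave 6.99, 7.03 and 6.96 in sshRNA no IR and 8.17, 7.70 and 7.55 in USFKD no IR. The log2 difference of 0.81 ± 0.16 (1.76-fold, adjusted p = 0.00412) was the largest among the glycosylase genes without irradiation. At 1d IR it was 0.43 ± 0.16 (adjusted p = 0.178), and at 7d IR 0.58 ± 0.16 (adjusted p = 0.0255), just under the fold threshold. The USFKD arrays were above the sshRNA arrays at each time.

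Neil3, a glycosylase for oxidised bases, gave 6.58, 6.50 and 6.31 in sshRNA no IR and 7.46, 6.85 and 7.15 in USFKD no IR, again without overlap. The log2 difference was 0.69 ± 0.15 (1.61-fold, adjusted p = 0.00789). Without USFKD no IR replicate 1, its highest untreated array, the difference was 0.54 (adjusted p = 0.0439) and under the fold threshold, and with only the 6 arrays compared it was 0.69 (adjusted p = 0.0593). At 1d IR and 7d IR the difference was 0.33 (adjusted p = 0.307) and 0.54 (adjusted p = 0.0256), and whether it changed with time did not pass the test (adjusted p = 0.846 and 0.781).

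**Figure D2:**
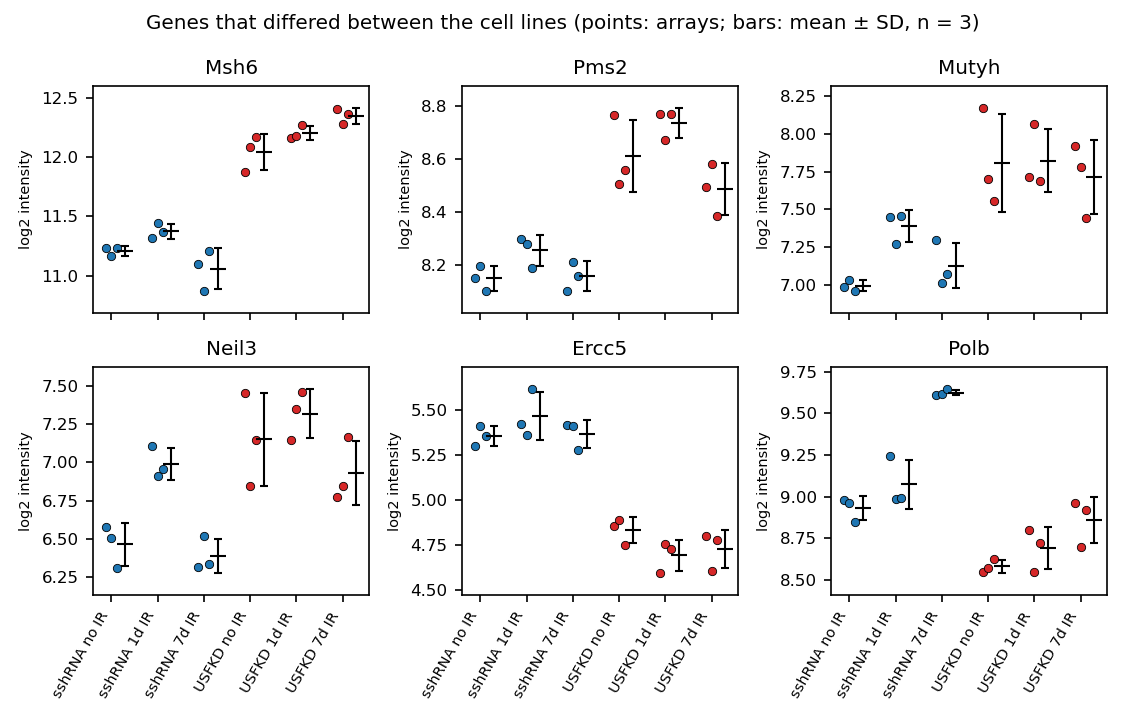
Log2 intensity (vertical axis) of 6 repair genes in the 6 groups (horizontal axis), with 1 point per array (blue sshRNA, red USFKD) and the mean ± SD of 3 arrays beside them. Msh6 and Pms2 lie higher on every USFKD array than on any sshRNA array, Ercc5 lower, and Polb stands at 9.61 to 9.64 in sshRNA 7d IR.

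Ercc5 gave 5.30, 5.41 and 5.36 in sshRNA no IR, 5.42, 5.36 and 5.62 at 1d IR and 5.42, 5.41 and 5.28 at 7d IR. In USFKD it gave 4.85, 4.89 and 4.75, then 4.60, 4.75 and 4.73, then 4.80, 4.61 and 4.78. All 9 USFKD arrays were below all 9 sshRNA arrays and lay between 4.60 and 4.89, around the dim limit of 4.67. The log2 difference was -0.52 ± 0.09 without irradiation (adjusted p = 0.00123, under the fold threshold), -0.78 ± 0.09 at 1d IR (adjusted p = 4.62e-05) and -0.64 ± 0.09 at 7d IR (adjusted p = 1.94e-04). Without USFKD 7d IR replicate 2 the last of these was -0.58, just under the fold threshold.

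Polb gave 8.98, 8.96 and 8.85 in sshRNA no IR, 9.25, 8.98 and 8.99 at 1d IR and 9.61, 9.62 and 9.64 at 7d IR. In USFKD the values were 8.55, 8.57 and 8.62, then 8.80, 8.55 and 8.72, then 8.96, 8.70 and 8.92. The USFKD arrays were the lower ones at each time. The gap between the lines was -0.35 ± 0.09 without irradiation (adjusted p = 0.034), -0.39 ± 0.09 at 1d IR (adjusted p = 0.0231) and -0.77 ± 0.09 at 7d IR (1.70-fold lower, adjusted p = 7.99e-05). The rise of Polb to 7d IR was 0.70 ± 0.09 in sshRNA (adjusted p = 5.73e-05) and 0.28 ± 0.09 in USFKD (adjusted p = 0.0544). The difference between these changes, -0.42 with an interval of -0.70 to -0.13, did not pass the test (adjusted p = 0.118).

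Several nucleotide excision repair genes differed between the lines by less than 1.5-fold. Counting every gene with adjusted p under 0.05 whatever its fold, 9, 6 and 11 of the 30 differed at the 3 times, beside 23%, 18.4% and 29.2% of the genes above the dim limit. Ercc6, the remodelling ATPase that acts at stalled RNA polymerase, was lower in USFKD at 1d IR (-0.47 ± 0.13, adjusted p = 0.0385) and 7d IR (-0.56 ± 0.13, adjusted p = 0.00811). Its partner in transcription-coupled repair, Ercc8, was lower at 7d IR (-0.41 ± 0.09, adjusted p = 0.0068). Rad23b, the XPC partner, was lower without irradiation (-0.43 ± 0.08, adjusted p = 0.00408) and at 7d IR (-0.29 ± 0.08, adjusted p = 0.0326). Xpc itself, the lesion sensor, was higher at 7d IR (0.43 ± 0.08, adjusted p = 0.00169), as was Xpa, and Ercc4, the nuclease of the 5′ cut, was lower without irradiation (-0.34 ± 0.08, adjusted p = 0.0172).

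Ercc6 gave 8.98, 8.75 and 8.63 in sshRNA 7d IR and 8.22, 8.11 and 8.34 in USFKD 7d IR. Ercc8 gave 8.92, 8.75 and 8.84 in sshRNA 7d IR and 8.55, 8.42 and 8.30 in USFKD 7d IR. Neither gene overlapped between the lines at that time. The promoters of both were printed because of this difference between the lines. The other genes with their own cluster and an E-box in the window, Parp2, Lig3, Gtf2h1 and Apex1, did not pass the test between the lines at any time (smallest adjusted p = 0.183, 0.291, 0.307 and 0.557).

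Among the glycosylase genes, Mbd4, which acts on thymine from deaminated methylcytosine, was lower in USFKD without irradiation (-0.29 ± 0.08, adjusted p = 0.0381) and at 1d IR (-0.34 ± 0.08, adjusted p = 0.0179). Neil1 had the most negative difference of the set at 1d IR, -0.83, without overlap between the lines, but did not pass the test. It was called there without USFKD no IR replicate 1 (limma, adjusted p = 0.0332), an array outside that comparison. Ung, which removes uracil, Ogg1, which removes oxidised guanine, Nthl1, which removes oxidised pyrimidines, and Mpg, which removes alkylated purines, gave log2 differences between -0.20 and 0.07 at the 3 times, and none passed the test. Their widest intervals ran from -0.42 to 0.29. Apex1 differed by 0.10 to 0.22 with intervals from -0.33 to 0.65, wide enough to hold a 1.5-fold difference.

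**Figure D3:**
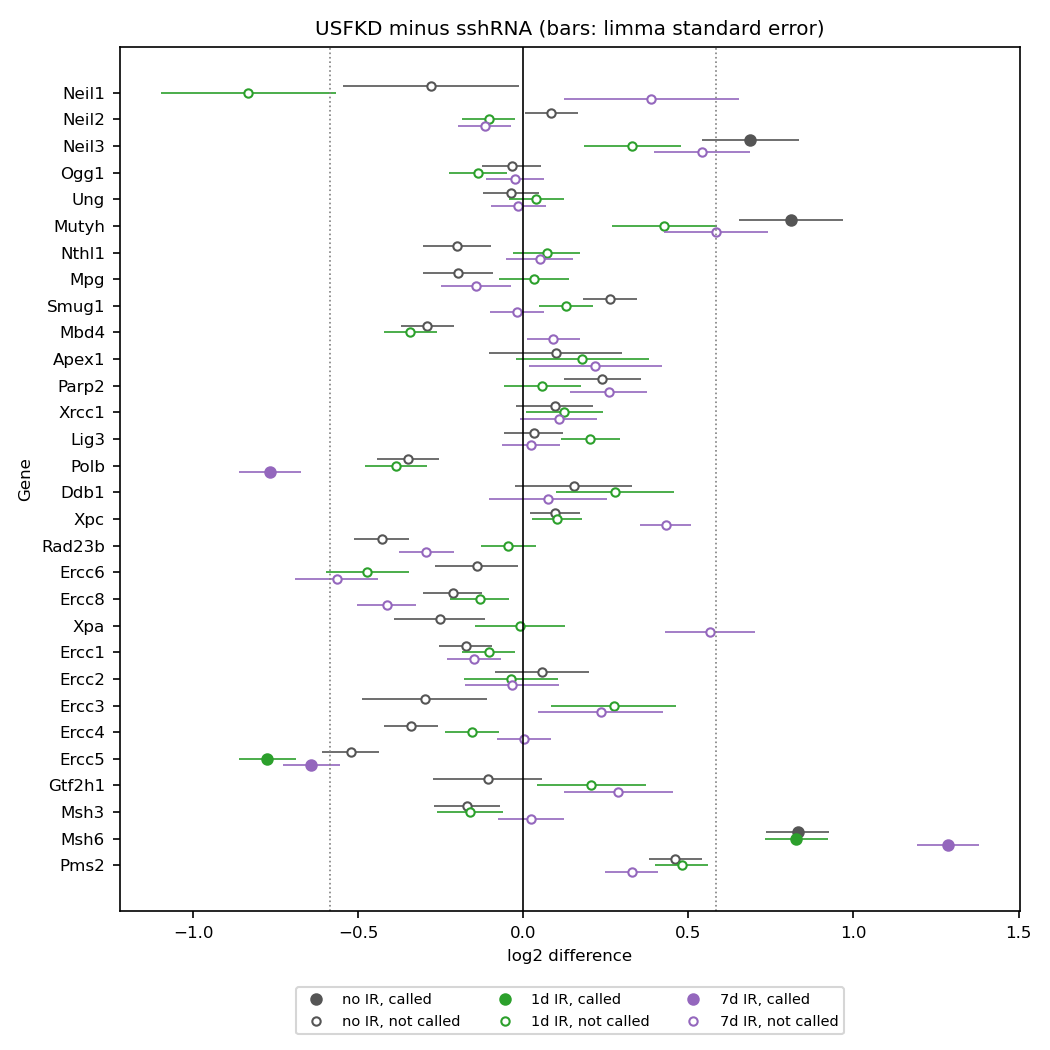
Log2 difference USFKD minus sshRNA (horizontal axis) for each repair gene (vertical axis) without irradiation (grey), at 1d IR (green) and at 7d IR (purple), with the limma standard error. Filled points were called and dotted lines mark a 1.5-fold difference; Msh6 lies past the line on the right at all 3 times.

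The next question was how the genes changed after irradiation. At 1d IR 0 of 30 repair genes were called in sshRNA, where 3.17% of genes above the dim limit were, and 0 in USFKD, where 0 genes were (0%). At an unadjusted p under 0.05 the counts were 8 in sshRNA and 2 in USFKD, beside 29.3% and 7.16% of the genes above the dim limit. Neil1, a glycosylase for oxidised pyrimidines, had the largest change in sshRNA, 0.87 ± 0.27 (adjusted p = 0.0996), with all 3 arrays above the untreated ones. It was called when array weights were used (0.90, adjusted p = 0.0221), with the 6 arrays compared alone (adjusted p = 0.0348) and without USFKD no IR replicate 1 (adjusted p = 0.0434), an array that enters only through the shared spread. In USFKD its change was 0.31 ± 0.27 (adjusted p = 0.816), and the difference between the lines' changes, -0.55 with an interval of -1.36 to 0.25, did not pass the test (adjusted p = 0.88).

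From no IR to 7d IR Neil1 rose in both lines, while Parp2 and Xrcc1 of strand break repair, Ddb1 of lesion recognition and the TFIIH helicase gene Ercc3 fell in both. At 7d IR, in sshRNA, 6 of 30 genes were called (2 higher, 4 lower), where 31.5% of genes above the dim limit were called (15.2% higher, 16.3% lower). In USFKD 5 were called (1 higher, 4 lower), beside 19% (9.84% higher, 9.14% lower). The median log2 change of the 30 genes was -0.03 in sshRNA and 0.00 in USFKD, against -0.02 and 0.01 over the genes above the dim limit. By role, 1 of 10 glycosylase genes was called in sshRNA, 3 of 5 genes of the later base excision steps, 1 of 5 of lesion recognition, 1 of 7 of TFIIH, verification and incision, and 0 of 3 of mismatch repair; USFKD differed only in that Polb was not called. Whatever the fold, 12 and 10 genes had an adjusted p under 0.05, beside 53.2% and 34.7% of the genes above the dim limit.

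Genes of cycling cells were lower at the same time. The mean of 9 such genes was 12.8 to 13.2 on the untreated and 1d IR arrays and 11.7 to 11.9 on the 7d IR arrays of both lines, and 6 of the 9 were called lower in each line. Mki67, a marker of cycling cells, changed by -1.63 in sshRNA and -1.82 in USFKD. At 1d IR it was called higher in sshRNA, with a mean of 15.81 against 14.69 untreated. For both lines the study described arrest by 1 day and renewed growth by 6 to 7 days, an order that these RNA levels do not follow. The part of the cycling gene shift, and of the spike-in shift given above, in the changes at 7d IR was not tested. In bulk RNA, fewer cells that express a gene and less RNA per cell cannot be told apart.

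Neil1 gave 12.07, 12.20 and 11.92 in sshRNA no IR and 12.99, 12.70 and 13.10 at 1d IR. At 7d IR it gave 13.63, 13.63 and 13.93. In USFKD the values were 12.44, 11.61 and 11.31, then 11.54, 12.45 and 12.31, then 14.13, 13.85 and 14.37. The untreated and 1d IR groups overlapped in USFKD, and the 7d IR arrays were above all others within each line. From no IR to 7d IR it rose by 1.66 ± 0.27 in sshRNA (3.17-fold, adjusted p = 2.55e-04) and 2.33 ± 0.27 in USFKD (5.03-fold, adjusted p = 4.57e-05), and their difference of 0.67 had an interval of -0.14 to 1.47 (adjusted p = 0.402). The other members of its family moved little from no IR to 7d IR: Neil3 changed by -0.07 and -0.22 (adjusted p = 0.717 and 0.344), and Neil2 was dim throughout.

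Parp2 gave 10.50, 10.56 and 10.45 in sshRNA no IR, 10.93, 10.79 and 10.87 at 1d IR and 9.72, 9.77 and 9.81 at 7d IR. In USFKD it gave 10.93, 10.55 and 10.76, then 10.63, 11.01 and 11.12, then 9.96, 10.04 and 10.09. In each line the 7d IR arrays were below all the others. From no IR to 7d IR it fell by 0.74 ± 0.12 in sshRNA (adjusted p = 2.36e-04) and by 0.72 ± 0.12 in USFKD (adjusted p = 6.3e-04), and these changes differed by 0.02 with an interval of -0.33 to 0.37. From 1d IR to 7d IR, comparisons that share the 7d IR arrays with the former, the changes were -1.09 ± 0.12 and -0.89 ± 0.12.

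Xrcc1 gave 9.69, 9.80 and 9.75 in sshRNA no IR and 9.01, 8.85 and 9.18 at 7d IR. In USFKD it gave 9.86, 9.91 and 9.74 without irradiation and 9.43, 8.99 and 8.94 at 7d IR. It fell without overlap by 0.73 ± 0.12 (adjusted p = 2.69e-04) and by 0.72 ± 0.12 (adjusted p = 6.51e-04), and the changes differed by 0.01 with an interval of -0.34 to 0.37. Lig3, the ligase carried by XRCC1, fell by 0.26 ± 0.09 and 0.27 ± 0.09 (adjusted p = 0.0327 and 0.0463), under the fold threshold. Apex1 changed by 0.08 and 0.20 (adjusted p = 0.779 and 0.556).

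**Figure D4:**
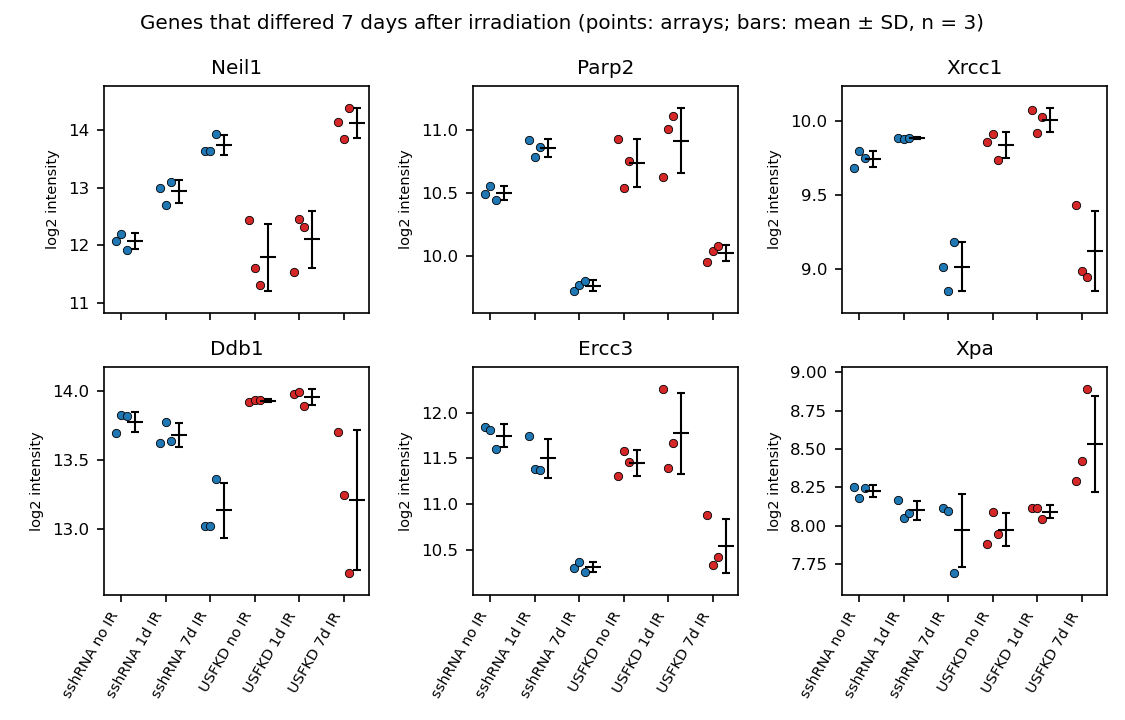
Log2 intensity (vertical axis) of 6 repair genes in the 6 groups (horizontal axis), with 1 point per array (blue sshRNA, red USFKD) and the mean ± SD of 3 arrays beside them. Neil1 is highest and Parp2, Xrcc1 and Ercc3 lowest at 7d IR in both lines; the 3 USFKD 7d IR arrays of Ddb1 spread from 12.68 to 13.70.

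Ercc3, a helicase of TFIIH that opens the DNA around a lesion and at promoters, had the largest fall of the set. It gave 11.84, 11.81 and 11.60 in sshRNA no IR, 11.74, 11.38 and 11.37 at 1d IR and 10.30, 10.37 and 10.26 at 7d IR. In USFKD it gave 11.31, 11.58 and 11.46, then 12.25, 11.39 and 11.67, then 10.88, 10.33 and 10.42. All the 7d IR arrays were below all the other arrays. The change was -1.44 ± 0.19 in sshRNA (2.71-fold lower, adjusted p = 4.54e-05) and -0.91 ± 0.19 in USFKD (1.87-fold lower, adjusted p = 0.00376), with a difference between them of 0.53 (interval -0.04 to 1.11, adjusted p = 0.336). Gtf2h1, another TFIIH subunit, changed by -0.41 ± 0.16 in sshRNA (adjusted p = 0.0679) and -0.02 in USFKD.

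Ddb1, which joins lesion sensor and ubiquitin ligase, gave 13.69, 13.82 and 13.81 in sshRNA no IR and 13.02, 13.02 and 13.36 at 7d IR. In USFKD it gave 13.92, 13.93 and 13.94 and then 13.70, 13.24 and 12.68. The groups did not overlap, but the USFKD 7d IR arrays were spread over a whole log2 unit. The change was -0.64 ± 0.18 in sshRNA (adjusted p = 0.0125) and -0.72 ± 0.18 in USFKD (adjusted p = 0.0108). Without USFKD 7d IR replicate 3 the change in USFKD was -0.46 (adjusted p = 0.0315), and with the compared arrays alone its adjusted p was 0.127. With each array centred on its bright clusters, which raised the sshRNA change of every gene by 0.13, the change in sshRNA was -0.51 and under the fold threshold.

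Between the lines, 1 of 30 genes was called for a different change to 7d IR, beside 5.57% of genes above the dim limit (3.82% higher, 1.74% lower), and 0 for a different change to 1d IR, beside 0%. The called gene was Xpa, which verifies the lesion before the cuts. It gave 8.25, 8.18 and 8.25 in sshRNA no IR and 8.12, 8.10 and 7.69 at 7d IR, and 7.88, 8.09 and 7.95 in USFKD no IR and 8.29, 8.42 and 8.89 at 7d IR. At 7d IR every sshRNA array was below the untreated sshRNA arrays and every USFKD array above the untreated USFKD arrays. The change was -0.26 ± 0.14 in sshRNA (adjusted p = 0.158) and 0.56 ± 0.14 in USFKD (adjusted p = 0.0102), a difference of 0.82 ± 0.19 (adjusted p = 0.0402). This call was lost under 18 of 26 alternative settings that could change it, with adjusted p up to 0.117, as when sshRNA 7d IR replicate 3 was left out (0.68, adjusted p = 0.074). Its level at 7d IR was higher in USFKD than in sshRNA by 0.57 ± 0.14 (adjusted p = 0.0137), under the fold threshold.

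**Figure D5:**
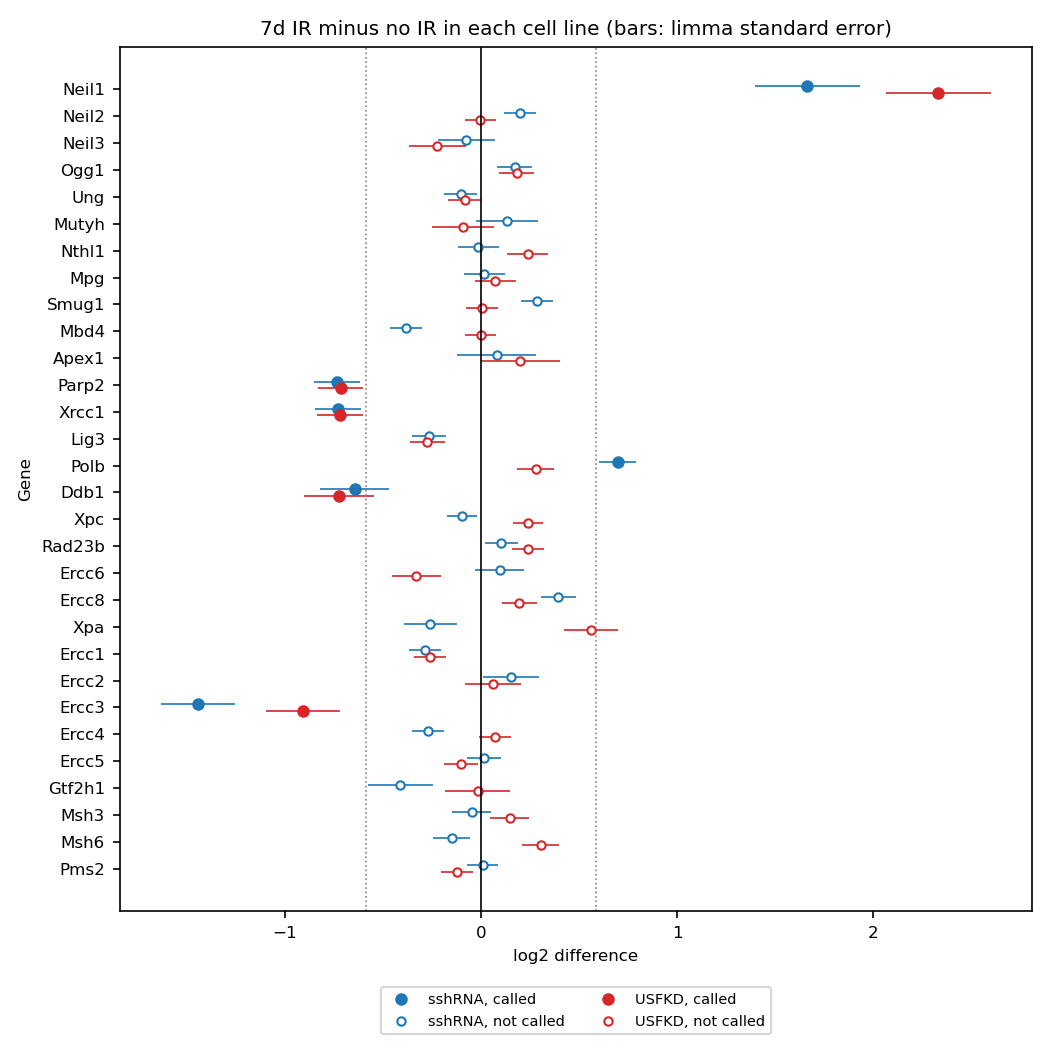
Log2 change from no IR to 7d IR (horizontal axis) in sshRNA (blue) and USFKD (red) for each repair gene (vertical axis), with the limma standard error. Filled points were called and dotted lines mark a 1.5-fold change; Neil1 lies farthest to the right in both lines, Ercc3 farthest to the left, and Xpa on opposite sides of 0.

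Smaller changes at 7d IR passed the test in sshRNA without reaching 1.5-fold. Ercc8 rose by 0.39 ± 0.09 (adjusted p = 0.00373) and Smug1, a uracil glycosylase, by 0.29 ± 0.08 (adjusted p = 0.0148). Mbd4 fell by 0.38 ± 0.08 (adjusted p = 0.00208), Ercc4 by 0.27 ± 0.08 (adjusted p = 0.0205) and its partner Ercc1 by 0.29 ± 0.08 (adjusted p = 0.0141). In USFKD the corresponding changes were 0.19 for Ercc8, 0.00 for Smug1, 0.00 for Mbd4 and 0.07 for Ercc4, none of which passed, and -0.26 ± 0.08 for Ercc1 (adjusted p = 0.0373). None of the differences between the lines' changes passed the test for these genes. Ung, Ogg1, Nthl1 and Mpg changed by -0.10 to 0.24 in the 2 lines and did not pass.

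From 1d IR to 7d IR, 5 of 30 genes were called in sshRNA (1 higher, 4 lower), beside 24.8% of genes above the dim limit (12.4% in each direction), and 5 in USFKD (1 higher, 4 lower), beside 17.1% (6.26% higher, 10.9% lower). At any fold 11 genes in each line had an adjusted p under 0.05, beside 45.5% and 33.2%. The 5 genes called in sshRNA were Neil1 (0.80 ± 0.27, adjusted p = 0.0375), Parp2, Xrcc1 (-0.87 ± 0.12), Ercc3 (-1.19 ± 0.19) and Neil3 (-0.60 ± 0.15, adjusted p = 0.00766). The 5 called in USFKD were Neil1 (2.02 ± 0.27, adjusted p = 1.51e-04), Parp2, Xrcc1 (-0.89 ± 0.12), Ercc3 (-1.23 ± 0.19) and Ddb1 (-0.75 ± 0.18, adjusted p = 0.0101). The Ddb1 change was -0.48 without USFKD 7d IR replicate 3, under the fold threshold. The Neil3 call in sshRNA was lost without sshRNA 1d IR replicate 1 (-0.54), sshRNA 7d IR replicate 1 (-0.57) or sshRNA 7d IR replicate 3 (-0.57). It was also lost with bright clusters centred (-0.49) and with array weights (-0.58). The Neil1 call in sshRNA was lost without any 1 of the 6 arrays compared, with adjusted p from 0.0546 to 0.117. Cyclic loess, array weights, no moderation and the replicate block each lost it too.

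For 3 genes the brightest cluster was annotated to a second transcript as well, so its values are not assigned to the gene. The cluster annotated jointly to Parp1, the main strand break sensor, and a microRNA changed from no IR to 7d IR by -1.26 ± 0.14 in sshRNA and -1.05 ± 0.14 in USFKD (adjusted p = 1.09e-05 and 1.38e-04). That of Ercc2, the other TFIIH helicase, and a microRNA changed by -0.91 ± 0.16 and -1.04 ± 0.16 (adjusted p = 4.85e-04 and 3.58e-04). That of Tdg, a thymine glycosylase, and its pseudogenes was lower in USFKD no IR by 0.72 ± 0.10 (limma, adjusted p = 2.03e-04). It gave 8.24, 8.43 and 8.37 in sshRNA no IR and 7.46, 7.69 and 7.73 in USFKD no IR. Its mean at 1d IR was 7.99 in sshRNA and 7.49 in USFKD, and at 7d IR 8.18 and 7.73, without overlap at either time.

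Further genes of the same pathways were read from lists of 53 genes, 46 of them measured. Between the lines 4 were higher and 5 lower in USFKD without irradiation, 5 and 4 at 1d IR, and 7 and 3 at 7d IR, where 4.5% and 8.52%, 5.24% and 5.1%, and 7.32% and 9.2% of the genes above the dim limit were. Mlh3, a mismatch repair gene of the same family as Pms2, was higher by 0.94 ± 0.15, 1.31 ± 0.15 and 1.41 ± 0.15 (adjusted p = 8.66e-04, 5.69e-05 and 2.22e-05). Polk, a polymerase that copies across lesions, was higher by 0.78, 0.65 and 1.05. Cetn2, the centrin that joins XPC and RAD23B, was lower by 1.52 ± 0.10, 1.02 ± 0.10 and 0.97 ± 0.10. Mgmt, which removes alkyl groups from guanine directly, was lower by 0.87, 0.64 and 0.65. All these differences were called.

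At 7d IR 3 of these 46 genes were called higher and 10 lower in sshRNA, and 3 and 7 in USFKD, beside the background shares given above. Fen1, the flap endonuclease of long-patch base excision repair, fell by 1.14 ± 0.24 and 0.96 ± 0.24 (adjusted p = 0.0021 and 0.011). Rpa1, which coats the opened strand, fell by 0.82 ± 0.13 and 0.62 ± 0.13, and Mlh3 by 1.11 ± 0.15 and 0.65 ± 0.15. Pold4, a subunit of replicative polymerase delta, rose by 1.42 ± 0.18 and 0.81 ± 0.18. Ddb2, the lesion-sensing partner of DDB1, was the one gene of these lists called at 1d IR, in sshRNA (1.44 ± 0.29, adjusted p = 0.0163), and it stayed higher there at 7d IR (1.59 ± 0.29, adjusted p = 8.45e-04). In USFKD its changes were 0.34 and 0.46 (adjusted p = 0.817 and 0.322) from an untreated level 1.08 ± 0.29 above that of sshRNA (adjusted p = 0.0368), and the differences between the lines' changes did not pass (adjusted p = 0.693 and 0.18). Exo1, the mismatch repair exonuclease, Rfc1, a clamp loader subunit, and Pole2, of polymerase epsilon, were called for a different change to 7d IR, by 0.63 ± 0.14, 0.61 ± 0.14 and 1.05 ± 0.19 (adjusted p = 0.028, 0.033 and 0.011), being lower at 7d IR than without irradiation by 1.11, 1.03 and 1.52 in sshRNA. In USFKD they were also lower, by 0.48, 0.41 and 0.47 (adjusted p = 0.00321, 0.00817 and 0.023), under the fold threshold.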

How the data were processed

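The deposited series table held 1 value per transcript cluster and array for 18 Affymetrix Mouse Transcriptome 1.0 arrays, biotin-labelled from total RNA. The authors made these log2 values by RMA in Affymetrix Expression Console; tool versions and genome build are not given in the sources used here. Of the 72688 clusters, 1339 reached values above 16. Names came from the platform annotation (30638 clusters with 1 symbol, 2176 with several), updated through Entrez identifiers where possible. Groups and replicate numbers were taken from the labels. All clusters and arrays entered a single limma fit (3.58.1, R 4.3.3) with 1 mean per group, with 9 pairwise contrasts and 2 differences of responses, and p-values were adjusted by Benjamini-Hochberg within each contrast. The study's methods name an analysis of variance with a false discovery rate under 0.05 and a fold over 1.5; the thresholds were kept and the fit without moderation was an alternative. The script was tested on simulated data. No 2 arrays were identical.

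The members and lists were chosen with earlier results of these data known. Values on each array are given for members called between the lines or for a different response at 7 days, and for others a result turned on; from the other lists only called genes were named, at most 4 per list. Alternatives were cyclic loess, centring on bright clusters, removal of dim clusters, no moderation, array weights, a prior with a variance trend, fitting only the arrays compared, dropping the fold threshold, averaging a gene's clusters, a replicate block, and leaving out each array.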

Additional observations from a re-analysis of the deposited data

Results flagged for a closer look

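Xpa differed between the cell lines in its change from no IR to 7d IR, by 0.82 ± 0.19 log2 units (limma, adjusted p = 0.0402). All 3 sshRNA arrays at 7d IR were below the untreated ones and all 3 USFKD arrays above them. The largest values behind it were sshRNA 7d IR replicate 3 at 7.69 and USFKD 7d IR replicate 3 at 8.89, the lowest and highest arrays for the gene. Of all 28 alternatives, counting those that could not lose it, 10 kept the call, and its adjusted p in limma reached 0.117. The fall in sshRNA did not pass the test by itself.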

How the results depend on the processing

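No called difference changed direction under any alternative tried. The 30 calls (a gene in a comparison) were each recomputed under 26 settings that could change them: they were kept 225 times and lost 15 times under 8 other ways of processing, and kept 514 times and lost 26 times with 1 array left out. Dropping the fold threshold could not lose any of them. Averaging a gene's clusters left the values of these genes as they were, since each had 1 cluster of its own, so it was no check of the calls. Without the fold threshold the counts of called repair genes were 9, 6 and 11 between the lines (no IR, 1d IR, 7d IR), 12 in sshRNA and 10 in USFKD from no IR to 7d IR, and 11 in each line from 1d IR to 7d IR. With array weights they were 5 between the lines at 7d IR, 1 in sshRNA at 1d IR and 3 in sshRNA from 1d IR to 7d IR. With only the arrays compared, 1 gene was called in sshRNA at 1d IR, and the calls of Neil3 between the lines without irradiation (adjusted p = 0.0593) and of Ddb1 in USFKD from no IR and from 1d IR to 7d IR (adjusted p = 0.127 and 0.125) were lost. The difference of the responses at 7d IR gave 0 called genes with cyclic loess, bright clusters centred, no moderation, only the arrays compared or the replicate number as a block. The cause was not tested.

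With 1 array left out the counts ran from 2 to 3 without irradiation, 2 to 3 at 1d IR and 3 to 5 at 7d IR between the lines. In sshRNA they were 0 to 1 at 1d IR, 6 at 7d IR and 4 to 5 from 1d IR to 7d IR. In USFKD they were 0, 4 to 6 and 4 to 5. For the differences of responses they were 0 at 1d IR and 0 to 1 at 7d IR. From 1d IR to 7d IR in sshRNA, cyclic loess called 0 higher and 6 lower and centring 2 higher and 3 lower, against 1 and 4.

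Over all groups the replicate numbers did not pair the arrays: deviations of same-numbered arrays correlated at -0.54 to 0.33, with 15 of 45 pairs over 0.1. In 2 of 9 comparisons all 3 same-numbered pairs were over 0.1, sshRNA no IR with 1d IR (0.16 to 0.33) and USFKD 1d IR with 7d IR (0.16 to 0.23), and their counts with the block, 0 and 5, were those without it. With the replicate block 3, 2 and 3 genes were called between the lines, 0, 6 and 4 in sshRNA and 0, 5 and 5 in USFKD; Neil1 from 1d IR to 7d IR in sshRNA (0.80, adjusted p = 0.054) and Xpa (0.82, adjusted p = 0.0638) lost their calls. Signal near the dim limit restricts what can be said of Ercc5, Neil2 and Ercc2.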
